A study of Mus musculus with 16 samples.

Results

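The genes *Dcx*, *Cd24a*, *Tubb3*, *Map2*, *Mapt*, *Stmn2*, *Stmn3*, *Elavl3*, *Elavl4* and *Gad1*, which are widely read as markers of neuroblasts and young neurons, were followed in cultured neural stem and progenitor cells (NSPCs) that carried either a *Dbx2* or a *GFP* transgene. They were chosen by name and are 10 of the 30386 genes of the deposited table. Reads were found for 9 of them, and the same 9 passed the filter on low values, over 1 CPM (the reads of a gene scaled to the total of its sample) in at least 4 samples. *Stmn3* and *Map2* fell in *Dbx2*-NSPCs in the test over all samples, although the ranges of the groups overlapped. *Elavl3* rose in each set of samples taken alone, those numbered 1 to 4 and those numbered 5 to 8. The fall of *Stmn3* was larger in the former set and did not pass the test in the latter taken alone. *Dcx* and *Mapt* changed in opposite directions in these sets. *Tubb3* did not pass the test in any comparison.

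In the adult subventricular zone (SVZ), neural stem cells give rise to dividing progenitors and then to neuroblasts, which migrate to the olfactory bulb and become interneurons. Neuroblasts switch on proteins that shape the microtubules of a moving cell or a growing process, RNA-binding proteins that favour neuronal messages, and, in most of this lineage, the enzymes that make GABA. Cultures kept in growth factors hold mainly proliferating progenitors, in which such markers can be low. *Dbx2* encodes a homeodomain transcription factor, a class that binds DNA with a TAAT core.

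The 16 samples of RNA were 8 of cells with the *Dbx2* transgene (*Dbx2*-NSPCs) and 8 of control cells (*GFP*-NSPCs), numbered 1 to 8 in each group, from NSPC lines of the SVZ of C57BL/6J/Babr mice aged 3 months. Per the study's methods, the cells were nucleofected with a plasmid for constitutive expression of *Dbx2* or, as the control, hrGFP, selected with puromycin and expanded in bulk. There were 2 independently derived pairs of lines with 4 independent experiments each, so the 8 samples of a group are repeat cultures of 2 lines, and all RNA came from non-adherent cultures grown with EGF and FGF2. The labels do not say which pair a sample came from, so the numbers are used only as numbers, and what else may differ between the samples numbered 1 to 4 and those numbered 5 to 8 cannot be told apart. The p-values measure the spread between these repeat cultures, not between many lines. In the main test over all samples, which has no term for the number sets, this spread also holds the difference between the sets.

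The libraries held 1803928 to 3293285 reads each, and 3 reads, taken as the floor of a sample, were worth 0.911 to 1.66 CPM. These floors and the read-count intervals given for *Dcx* cover counting error only. *Dbx2* itself lay between 89.3 and 171 CPM in *GFP*-NSPCs and between 136 and 232 CPM in *Dbx2*-NSPCs numbered 1 to 4, and these ranges overlapped (log2 fold change 0.54, SE 0.198, adjusted p = 0.0891 by limma). Among those numbered 5 to 8 it lay between 30.7 and 39.5 CPM in *GFP*-NSPCs and between 114 and 155 CPM in *Dbx2*-NSPCs (log2 fold change 1.99, SE 0.118, adjusted p = 5.67e-08 by limma). Over all samples it rose by 1.26 on the log2 scale (SE 0.317, adjusted p = 0.00978 by limma). Reads of the transgene and of the cells' own gene cannot be told apart in these values. Of the markers of NSPCs, 9 of 10 passed the filter, with a summed level between 4050 and 5810 CPM in every sample. No microglial marker of 6 passed it, and *Aif1* and *Tmem119* were at 0.

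Positions are given on GRCm38 from GENCODE M21. The marker genes lie on different chromosomes, except for *Gad1* and *Stmn3*: *Map2* at chr1:66175273-66442583, *Gad1* at chr2:70553072-70602014, *Stmn3* at chr2:181306459-181314500, *Stmn2* at chr3:8509360-8561606, *Elavl4* at chr4:110203722-110351909, *Tubb3* at chr8:123411424-123422015, *Elavl3* at chr9:22015005-22052023, *Cd24a* at chr10:43578284-43584265, *Mapt* at chr11:104231390-104332090 and *Dcx* at chrX:143855842-143933311. *Stmn3*, *Elavl3*, *Elavl4* and *Dcx* are on the minus strand. All of them are protein coding. Annotated genes on the opposite strand overlap *Gad1* (*Gad1os*, 0.187 CPM on average) and *Map2* and *Mapt* (*Gm10558* and *Gm11659*, both at 0). On the same strand, the protein-coding *Gm49318* (chr9:22036380-22071259) overlaps *Elavl3* and *Gm20388* (chr8:119910841-124345722) spans the whole of *Tubb3*, and both were at 0 in all samples. The strand used in counting is not given in the sources used here. Reads in the stretch shared by *Gad1* and *Gad1os* (chr2:70553072-70563357) thus cannot be told apart. This stretch covers the start of *Gad1* and not its end.

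The RefSeq promoter table (GRCm38.p6) held entries for 7 of the 10 marker genes. The stretches just upstream are shown for *Elavl3* and *Stmn3*, which had the largest log2 fold changes over all samples, for *Map2*, which fell in both sets, and for *Dcx*, which turned direction. They end before both the RefSeq and the GENCODE start of the gene, although that of *Elavl3* lies inside the annotated span of *Gm49318*. They read 5′ to 3′ on the gene's strand, and are in lower case with every TAAT (on either strand, hence also ATTA) in capitals.
*Elavl3*, chr9:22052024-22052273, minus strand: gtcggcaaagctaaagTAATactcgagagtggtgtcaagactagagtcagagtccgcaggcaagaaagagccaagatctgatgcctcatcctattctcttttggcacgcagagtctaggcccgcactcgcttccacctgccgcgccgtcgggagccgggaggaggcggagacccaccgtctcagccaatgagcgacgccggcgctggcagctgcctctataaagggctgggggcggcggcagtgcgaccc
*Stmn3*, chr2:181314501-181314750, minus strand: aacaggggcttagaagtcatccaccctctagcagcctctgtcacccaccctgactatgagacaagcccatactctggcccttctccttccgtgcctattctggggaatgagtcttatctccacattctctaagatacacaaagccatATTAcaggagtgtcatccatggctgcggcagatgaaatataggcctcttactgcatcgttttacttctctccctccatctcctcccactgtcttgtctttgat
*Map2*, chr1:66175079-66175272, plus strand: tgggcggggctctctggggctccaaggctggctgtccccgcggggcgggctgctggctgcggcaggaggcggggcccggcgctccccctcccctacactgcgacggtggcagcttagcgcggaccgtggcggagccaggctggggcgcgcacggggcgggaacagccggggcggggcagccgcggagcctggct
*Dcx*, chrX:143933312-143933469, minus strand: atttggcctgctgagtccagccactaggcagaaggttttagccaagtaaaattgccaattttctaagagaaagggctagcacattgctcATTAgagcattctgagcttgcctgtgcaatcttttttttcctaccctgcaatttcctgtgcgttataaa

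In the stretches shown, TAAT occurred 1 time each upstream of *Elavl3*, *Stmn3* and *Dcx* and 0 times upstream of *Map2*. *Dcx* has another RefSeq start, and the 63 bases before it and the GENCODE start, which lie within the stretch shown, held 0. The whole windows of 250 bases before these *Dcx* starts, which reach into the annotated gene, held 4 and 5. Among all 32851 promoters of the table, 54.9% held TAAT in a stretch as long as that of *Elavl3* or *Stmn3*, 49.4% in one as long as that of *Map2* and 44.7% in one as long as that of *Dcx*. The motif is thus common at these lengths, and its presence or absence is only a description of these letters.

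**Figure D1:**
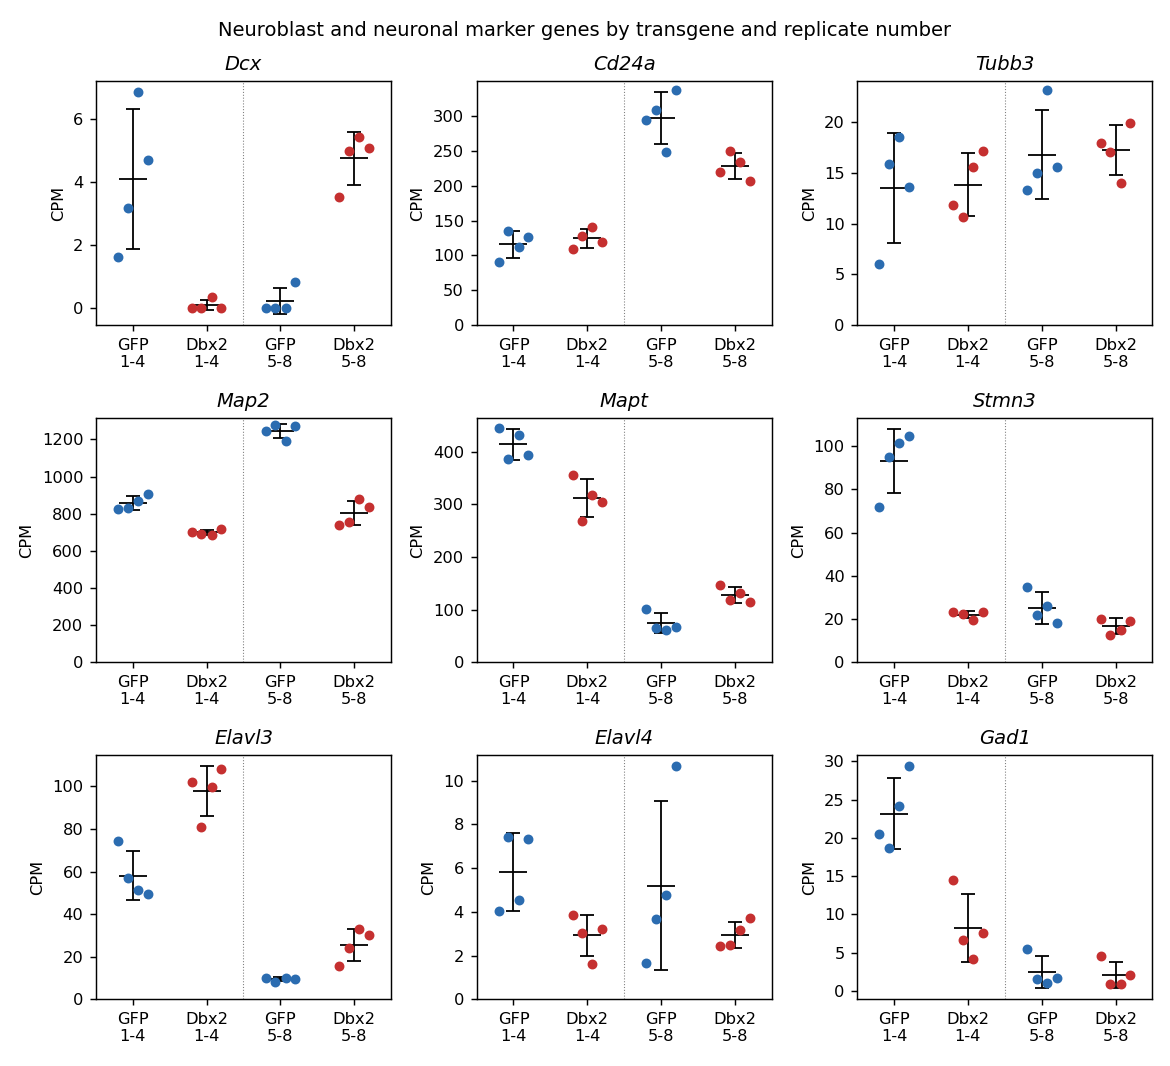
Level in CPM (vertical axes, linear) of the 9 marker genes with reads in each of the 16 samples, split by transgene (blue, *GFP*-NSPCs, and red, *Dbx2*-NSPCs) and by replicate number; horizontal marks and bars are the mean ± SD of 4 samples. *Dcx* was near 0 in *Dbx2*-NSPCs numbered 1 to 4 and in *GFP*-NSPCs numbered 5 to 8, and *Map2* was lower in *Dbx2*-NSPCs in both sets.

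Among the markers of migrating neuroblasts, *Dcx* changed the most and in opposite ways. *Dcx* encodes doublecortin, a microtubule-associated protein needed for neuronal migration. In *GFP*-NSPCs numbered 1 to 4 its levels were 1.61, 3.17, 6.84 and 4.67 CPM, whereas the *Dbx2*-NSPCs of these numbers had 0, 0, 0.33 and 0 CPM. In *GFP*-NSPCs numbered 5 to 8 the levels were 0, 0, 0 and 0.82 CPM, against 3.52, 4.97, 5.42 and 5.06 CPM in *Dbx2*-NSPCs. The groups did not overlap in either set, with *GFP*-NSPCs higher in the samples numbered 1 to 4 and *Dbx2*-NSPCs higher in those numbered 5 to 8. These levels rest on few reads, 48 against 1 in the samples numbered 1 to 4 and 2 against 53 in those numbered 5 to 8. For the library totals, this is a ratio of 51.7 in favour of *GFP*-NSPCs (95% counting interval 8.85 to 2080) and then of 24.6 in favour of *Dbx2*-NSPCs (95% counting interval 6.48 to 208). On the log2(CPM + 0.5) scale, which understates changes of low genes, *Dcx* fell by 2.87 in the samples numbered 1 to 4 (SE 0.440, adjusted p = 0.00111 by limma). It rose by 3.02 in those numbered 5 to 8 (SE 0.403, adjusted p = 8.48e-05). The difference between these responses was 5.89 (SE 0.627, adjusted p = 3.26e-07), and over all samples the log2 fold change was 0.08 (95% interval -1.46 to 1.62, adjusted p = 0.961).

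*Cd24a* encodes a surface glycoprotein used to sort neuroblasts, which ependymal cells carry too. Its level was 90.7, 135, 111 and 126 CPM in *GFP*-NSPCs numbered 1 to 4 and 109, 128, 141 and 119 CPM in the *Dbx2*-NSPCs. The samples numbered 5 to 8 had 294, 308, 249 and 338 CPM in *GFP*-NSPCs, against 220, 250, 234 and 207 CPM in *Dbx2*-NSPCs. The samples numbered 5 to 8 thus held more *Cd24a* than those numbered 1 to 4 whatever the transgene, and the *GFP* and *Dbx2* ranges overlapped in both sets. *Cd24a* fell by 0.38 in the samples numbered 5 to 8 (SE 0.0964, adjusted p = 0.0111 by limma), a call that was lost without the filter on low values (adjusted p = 0.0632) and without the intensity trend (adjusted p = 0.0694). In the samples numbered 1 to 4 the log2 fold change was 0.11 (95% interval -0.18 to 0.40, adjusted p = 0.628 by limma). The difference between the responses was -0.49 (adjusted p = 0.0692 by limma; with same-numbered samples blocked, 0.0428), and it was called without *GFP*-NSPC sample 2 (0.0379) or 7 (0.0364) or *Dbx2*-NSPC sample 1 (0.0402). Of the 6 ependymal markers, 4 passed the filter, and their summed level stayed between 11.7 and 48.5 CPM in all samples, with *Tmem212* at 0.

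Of the tubulin and microtubule-associated genes, *Map2* fell in both sets and *Mapt* in the samples numbered 1 to 4 alone, while *Mapt* rose in those numbered 5 to 8. *Map2* encodes a microtubule-associated protein of dendrites. *GFP*-NSPCs numbered 1 to 4 had 827, 833, 871 and 909 CPM of *Map2*, and *Dbx2*-NSPCs 704, 693, 684 and 717 CPM. For those numbered 5 to 8 the levels were 1243, 1278, 1194 and 1271 CPM in *GFP*-NSPCs, against 739, 758, 879 and 834 CPM in *Dbx2*-NSPCs. Within each set every *Dbx2*-NSPC sample was below every *GFP*-NSPC sample, but the highest *Dbx2*-NSPC sample was above the lowest *GFP*-NSPC sample of the other set. Over all samples *Map2* fell by 0.47 on the log2 scale (SE 0.108, adjusted p = 0.00557 by limma), from 1050 ± 210 to 751 ± 70.1 CPM (mean ± SD, n = 8 each). It fell by 0.64 in the samples numbered 5 to 8 (SE 0.0731, adjusted p = 2.13e-05 by limma) and by 0.30 in those numbered 1 to 4 (SE 0.0831, adjusted p = 0.0302 by limma). The smaller change was no longer called with quantile normalization (adjusted p = 0.0821), without the intensity trend (adjusted p = 0.0981) or with edgeR on the recovered reads (adjusted p = 0.0572). It was also lost without *GFP*-NSPC sample 2, 3 or 4 (0.062, 0.0885 and 0.0959) or without *Dbx2*-NSPC sample 1, 2 or 3 (0.0508, 0.0757 and 0.094). The difference between the responses was -0.34 (adjusted p = 0.0578 by limma) and was called with quantile normalization (0.0124), with genes of at least 10 CPM on average (0.0444), with DESeq2 (0.00727) and without *Dbx2*-NSPC sample 7 (0.0401).

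*Mapt* encodes tau, the microtubule-associated protein of axons. It was at 444, 386, 432 and 394 CPM in *GFP*-NSPCs numbered 1 to 4 and at 356, 269, 318 and 304 CPM in *Dbx2*-NSPCs. The samples numbered 5 to 8 held 102, 65.0, 62.2 and 67.4 CPM in *GFP*-NSPCs, against 147, 118, 132 and 115 CPM in *Dbx2*-NSPCs. No *GFP* and *Dbx2* sample overlapped within a set, and every sample numbered 1 to 4 was above every sample numbered 5 to 8. In log2 units, *Mapt* fell by 0.41 in the samples numbered 1 to 4 (SE 0.103, adjusted p = 0.0173 by limma), and this call was lost without the intensity trend (0.0721), without *GFP*-NSPC sample 3 (0.0601) or without *Dbx2*-NSPC sample 2 (0.056). It rose by 0.81 in the samples numbered 5 to 8 (SE 0.144, adjusted p = 0.000967 by limma). The responses differed by 1.22 (SE 0.182, adjusted p = 3.7e-05 by limma). Over all samples the log2 fold change of *Mapt* was 0.20 (95% interval -0.77 to 1.16, adjusted p = 0.822 by limma), with the opposite sign in edgeR and DESeq2 (-0.13 in both).

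*Tubb3* encodes the neuronal beta-tubulin that is a standard marker of immature neurons. Its level was 6.04, 15.9, 18.6 and 13.7 CPM in *GFP*-NSPCs, against 11.9, 10.6, 15.6 and 17.2 CPM in *Dbx2*-NSPCs numbered 1 to 4. Those numbered 5 to 8 had 13.3, 15.0, 23.2 and 15.6 CPM in *GFP*-NSPCs, against 18.0, 17.1, 14.0 and 19.9 CPM in *Dbx2*-NSPCs. The ranges overlapped in each set and between the sets. The log2 fold change over all samples was 0.08, with a 95% interval of -0.36 to 0.53 (adjusted p = 0.834 by limma), and a smaller change within these bounds was not detectable here. The related tubulins *Tubb2a*, *Tubb2b* and *Tuba1a* did not pass the test either, with log2 fold changes of 0.00, -0.02 and -0.05 over all samples.

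**Figure D2:**
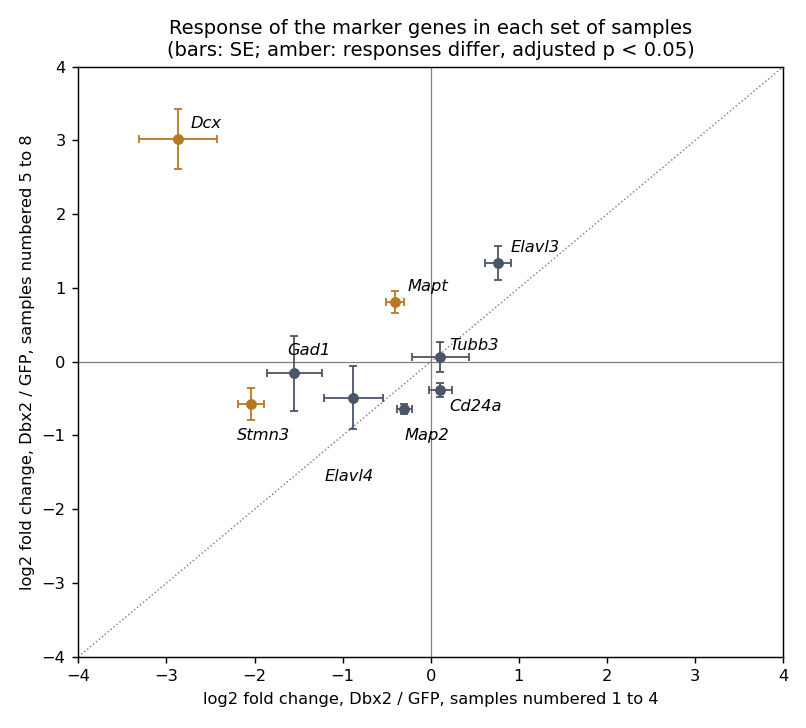
Log2 fold change (*Dbx2*-NSPCs over *GFP*-NSPCs, log2(CPM + 0.5) scale) of the 9 tested marker genes in the samples numbered 1 to 4 (horizontal axis) against those numbered 5 to 8 (vertical axis), with bars of 1 SE and a dotted line of equal responses. *Dcx* (-2.87 and 3.02) and *Mapt* (-0.41 and 0.81) lie in the upper left quadrant and *Cd24a* (0.11 and -0.38) in the lower right, both of opposite directions. Amber marks the 3 genes whose responses differed.

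Of the stathmins, proteins that bind free tubulin and are active in growth cones, *Stmn3* fell and *Stmn2* was not detected. *Stmn3* was at 71.7, 95.2, 102 and 105 CPM in *GFP*-NSPCs numbered 1 to 4 and at 23.4, 22.2, 19.5 and 23.3 CPM in *Dbx2*-NSPCs. It was at 34.9, 21.8, 26.0 and 18.1 CPM in *GFP*-NSPCs numbered 5 to 8 and at 20.1, 12.4, 14.9 and 19.2 CPM in *Dbx2*-NSPCs. The groups were far apart in the samples numbered 1 to 4 and overlapped in those numbered 5 to 8, where *GFP*-NSPCs were themselves low. *Stmn3* fell by 1.30 on the log2 scale over all samples (SE 0.341, adjusted p = 0.0132 by limma), from 59.2 ± 38.0 to 19.4 ± 3.94 CPM (mean ± SD, n = 8 each). It fell by 2.04 in the samples numbered 1 to 4 (SE 0.145, adjusted p = 4.11e-06 by limma). In those numbered 5 to 8 the log2 fold change was -0.57 (SE 0.220, adjusted p = 0.0812 by limma), which passed the test with genes of at least 10 CPM on average (0.0454), with edgeR (0.0449) and without *GFP*-NSPC sample 8 (0.0395). The responses differed by 1.48 (SE 0.268, adjusted p = 0.000427 by limma).

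*Stmn2* had 0 reads among the 45295840 reads of the 16 samples, which allows a level of up to 0.0662 CPM over the whole series. Neither of the other stathmins in the lists was called lower. *Stmn1*, a stathmin of dividing cells, rose by 0.56 over all samples (SE 0.133, adjusted p = 0.00697 by limma), with 0.90 in the samples numbered 1 to 4 and 0.21 in those numbered 5 to 8, of which only the former passed (adjusted p = 0.00263 and 0.0804). *Stmn4* averaged 8.32 CPM in *GFP*-NSPCs, against 7.82 CPM in *Dbx2*-NSPCs, and did not pass (adjusted p = 0.962 by limma).

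The RNA-binding proteins *Elavl3* and *Elavl4* (HuC and HuD) stabilise neuronal messages, and here *Elavl3* rose within each set. It was at 74.5, 57.1, 51.2 and 49.7 CPM in *GFP*-NSPCs numbered 1 to 4 and at 102, 81.0, 99.6 and 108 CPM in *Dbx2*-NSPCs. The samples numbered 5 to 8 had 9.97, 8.28, 10.2 and 9.46 CPM in *GFP*-NSPCs, against 15.8, 23.9, 33.0 and 30.1 CPM in *Dbx2*-NSPCs. Every *Dbx2*-NSPC sample was above every *GFP*-NSPC sample of its set, while both groups numbered 5 to 8 were below both groups numbered 1 to 4. *Elavl3* rose by 0.76 in the samples numbered 1 to 4 (SE 0.146, adjusted p = 0.00458 by limma) and by 1.34 in those numbered 5 to 8 (SE 0.226, adjusted p = 0.000619 by limma). The responses did not differ past the threshold (0.59, 95% interval 0.04 to 1.13, adjusted p = 0.185 by limma, and 0.0276 without *Dbx2*-NSPC sample 5). Over all samples the log2 fold change was 1.05 (SE 0.533) and did not pass without a term for the sets (adjusted p = 0.201 by limma). It passed with same-numbered samples as a block (adjusted p = 0.000295) and with the set as a covariate (adjusted p = 1.82e-05).

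*Elavl4* was low. Its level was 4.03, 7.41, 4.56 and 7.33 CPM in *GFP*-NSPCs, against 3.85, 3.04, 1.63 and 3.23 CPM in *Dbx2*-NSPCs numbered 1 to 4. Those numbered 5 to 8 had 1.66, 3.68, 4.78 and 10.7 CPM in *GFP*-NSPCs, against 2.46, 2.48, 3.16 and 3.71 CPM in *Dbx2*-NSPCs. The groups were apart in the samples numbered 1 to 4 and overlapped in those numbered 5 to 8. With 122 reads in *GFP*-NSPCs and 69 in *Dbx2*-NSPCs, its log2 fold change over all samples was -0.69 (SE 0.285, adjusted p = 0.112 by limma, 0.0225 without *GFP*-NSPC sample 5 and 0.0459 by DESeq2). The third Hu gene of the lists, *Elavl2*, had a log2 fold change of -0.16 over all samples (adjusted p = 0.614 by limma).

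*Gad1* encodes an enzyme that makes GABA, the transmitter of most olfactory bulb interneurons. It was at 20.6, 18.7, 24.1 and 29.3 CPM in *GFP*-NSPCs numbered 1 to 4 and at 14.4, 6.68, 4.23 and 7.53 CPM in *Dbx2*-NSPCs. It was low in those numbered 5 to 8, with 5.54, 1.53, 1.02 and 1.64 CPM in *GFP*-NSPCs, against 4.58, 0.93, 0.90 and 2.03 CPM in *Dbx2*-NSPCs, which is 22 and 24 reads in all. The groups were thus apart in the former set and overlapped near the floor in the latter. *Gad1* fell by 1.55 in the samples numbered 1 to 4 (SE 0.314, adjusted p = 0.00592 by limma). Its log2 fold change was -0.16 in those numbered 5 to 8 (95% interval -1.25 to 0.93, adjusted p = 0.863 by limma) and -0.85 over all samples (adjusted p = 0.434). The responses did not differ past the threshold (1.39, adjusted p = 0.176 by limma, and 0.0469 without *GFP*-NSPC sample 5). *Gad2*, the other gene for this enzyme, did not pass the filter on low values.

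Set against the whole table, the marker genes were called as follows. Over all samples, 2 of the 9 tested were called, both lower, where 15.8% of all tested genes were called. Within the samples numbered 1 to 4, 6 of 9 were called (1 higher, 5 lower) against a background of 15.6%, and in those numbered 5 to 8, 5 of 9 (3 higher, 2 lower) against 23.2%. For 3 of 9, *Dcx*, *Mapt* and *Stmn3*, the responses differed between the sets, where 9.44% of all genes did. *Map2* and *Elavl3* were called in the same direction in both sets, as 6.49% of all genes were, and *Dcx* and *Mapt* in opposite directions, as 1.47% were. The median log2 fold change of the 9 genes was -0.13 over all samples, -0.41 in the samples numbered 1 to 4 and -0.16 in those numbered 5 to 8, beside -0.02, -0.04 and -0.01 for all tested genes.

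Groups that did not overlap gave a like picture. Over all samples the *GFP* and *Dbx2* ranges overlapped for all 9 genes, while 3.41% of the tested genes had separate ranges. Within the samples numbered 1 to 4 the ranges were separate for 7 genes (background 19.6%), with *Elavl3* higher and *Dcx*, *Mapt*, *Map2*, *Stmn3*, *Elavl4* and *Gad1* lower in *Dbx2*-NSPCs. In those numbered 5 to 8 they were separate for 4 (background 24.8%), with *Dcx*, *Mapt* and *Elavl3* higher and *Map2* lower.

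The number sets themselves stood apart for most of the marker genes, also among the controls. In *GFP*-NSPCs, 7 of 9 had separate ranges between the sets (28.9% of all tested genes did). *Cd24a* and *Map2* were higher in the samples numbered 5 to 8, and *Dcx*, *Elavl3*, *Gad1*, *Mapt* and *Stmn3* were lower. In *Dbx2*-NSPCs, 5 of 9 had separate ranges (19.8% of all tested genes), with *Cd24a*, *Dcx* and *Map2* higher and *Elavl3* and *Mapt* lower in those numbered 5 to 8. For *Stmn3*, the mean of 93.3 ± 14.9 CPM in *GFP*-NSPCs numbered 1 to 4 was thus the only one of the 4 means (± SD, n = 4 each) that stood well above the others, which were 22.1 ± 1.81, 25.2 ± 7.24 and 16.7 ± 3.62 CPM. For *Mapt*, the order from high to low was *GFP* 1 to 4 (414 ± 28.8 CPM), *Dbx2* 1 to 4 (312 ± 36.1), *Dbx2* 5 to 8 (128 ± 14.9) and *GFP* 5 to 8 (74.1 ± 18.7), with no overlap between neighbours.

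The genes next to each marker on its chromosome were compared with it. For *Stmn3*, *Elavl3* and *Mapt*, the median log2 fold change of the 20 nearest tested genes lay between -0.06 and 0.20 in either set, far from that of the marker itself. *Dcx* likewise stood apart from its neighbours, whose median was -0.25 in the samples numbered 1 to 4 and -0.04 in those numbered 5 to 8. In the former set 6 of the 20 were called lower, where 924 of all 12533 tested genes were. *Map2* fell by about as much as the median of its neighbours in the samples numbered 1 to 4 (-0.30 and -0.28) and by more in those numbered 5 to 8 (-0.64 and -0.26). *Cd24a* changed by less than its neighbours in the samples numbered 5 to 8 (-0.38 and -0.55). There 11 of the 20 were called lower, where 1467 of all 12533 tested genes were. The part of changes shared with neighbouring genes in the values of *Cd24a* and *Map2* was not tested.

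**Figure D3:**
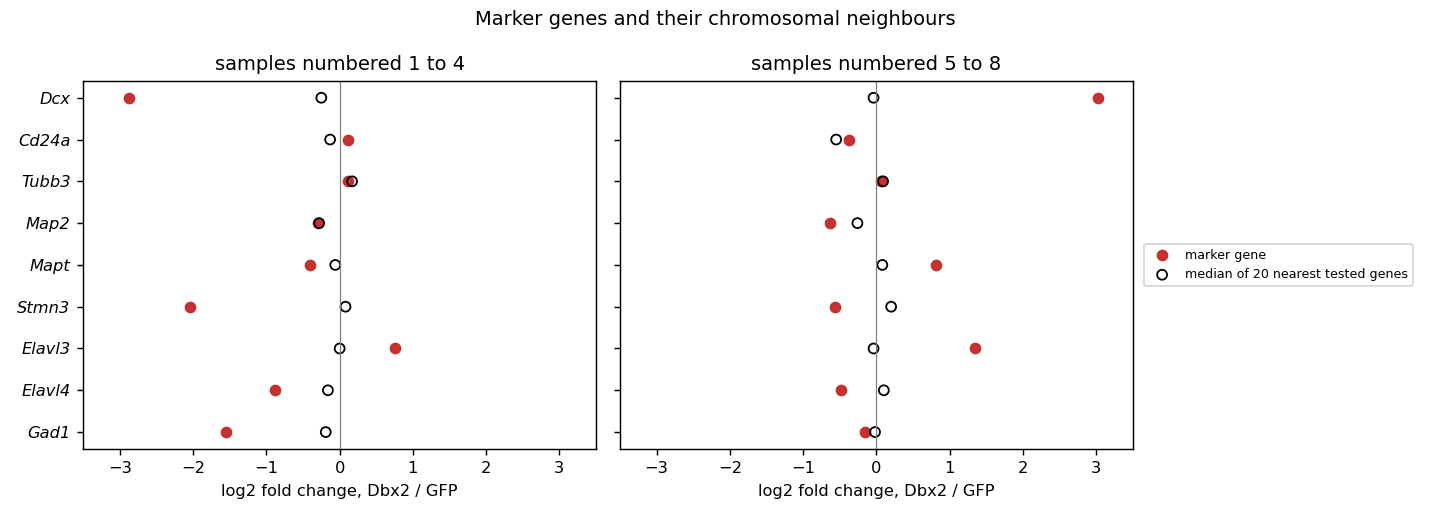
Log2 fold change (*Dbx2*-NSPCs over *GFP*-NSPCs) of each marker gene (filled red) and the median of its 20 nearest tested genes on the chromosome (open), in the samples numbered 1 to 4 (left) and 5 to 8 (right). *Cd24a* and *Map2* lie near their neighbours in at least 1 set, whereas *Dcx*, *Stmn3* and *Elavl3* stand apart from them.

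Other genes of the neuronal lineage were followed in lists by role, beside the 15.8% (all samples), 15.6% (numbered 1 to 4) and 23.2% (numbered 5 to 8) of all tested genes that were called in either direction. Of the 17 tested neuroblast genes, 8 fell and 0 rose over all samples, with 13 lower and 0 higher in the samples numbered 1 to 4 and 10 lower and 2 higher in those numbered 5 to 8. Their median log2 fold change over all samples was -0.63. *Nrep* fell by 0.82 on the log2 scale (SE 0.102, adjusted p = 1.67e-05 by limma), from 50.4 to 28.6 CPM, *Meis2*, a homeodomain factor of olfactory bulb neuroblasts, by 0.80, and *Fabp7*, a fatty acid binding protein of radial glia and progenitors, by 0.72. *Dlx5*, *Dlx6* and *Foxp2* were at 0 in all samples.

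Of the 18 tested microtubule genes of young neurons, 4 rose and 2 fell over all samples (15.8% of all tested genes were called), 2 rose and 4 fell in the samples numbered 1 to 4 (15.6%), and 6 rose and 1 fell in those numbered 5 to 8 (23.2%). *Kif5c*, a kinesin motor, rose by 1.33, *Map6* by 0.59 and *Stmn1* by 0.56, whereas *Dpysl3*, which acts on growth cones, fell by 1.57 (SE 0.453, adjusted p = 0.0231 by limma), by 0.60 in the samples numbered 1 to 4 and by 2.54 in those numbered 5 to 8. *Dclk1*, the paralogue of *Dcx*, rose by 0.30 in the samples numbered 5 to 8 (adjusted p = 0.0214 by limma) and had a log2 fold change of 0.14 in those numbered 1 to 4 (adjusted p = 0.35). *Map1b* did not pass in either set (adjusted p = 0.138 and 0.451).

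Of the 13 tested neuronal RNA-binding proteins, 2 rose and 1 fell over all samples (15.8% of all tested genes were called). In the samples numbered 1 to 4, 2 rose and 4 fell (15.6%), with a median log2 fold change of -0.37, and in those numbered 5 to 8, 5 rose and 2 fell (23.2%), with a median of 0.43. *Celf4* rose by 2.59 (SE 0.247, adjusted p = 9.83e-07 by limma), from 2.81 to 18.2 CPM, *Celf5* rose by 1.05, and *Khdrbs3* fell by 0.74. Of the 10 tested genes of GABA and glutamate signalling, 0 rose and 5 fell in the samples numbered 1 to 4 (15.6% of all tested genes were called), and 3 rose and 4 fell in those numbered 5 to 8 (23.2%). Over all samples 1 fell (15.8%), *Grin2b*, a glutamate receptor subunit that averaged 1.78 CPM in the controls and 0.238 CPM in *Dbx2*-NSPCs. It was named because it was the only call over all samples, after its values were seen. *Slc32a1* and *Slc17a6* were at 0 in all samples, and *Slc17a7* did not pass the filter.

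Of the 21 tested genes of mature neurons, 4 rose and 1 fell over all samples (15.8% of all tested genes were called). In the samples numbered 1 to 4, 5 rose and 3 fell (15.6%), with a median log2 fold change of -0.02, and in those numbered 5 to 8, 11 rose and 2 fell (23.2%), with a median of 0.51. *Camk2a*, a synaptic kinase, rose by 2.55 (SE 0.383, adjusted p = 0.000128 by limma), from 3.90 to 21.3 CPM. *Syn2*, a synaptic vesicle protein, rose by 1.06 and *Uchl1* by 0.63, whereas *Ina*, a neuronal intermediate filament, fell by 0.95. Of the 15 repressors of neuronal genes, 4 rose and 0 fell in the samples numbered 1 to 4 (15.6%) and 4 rose and 6 fell in those numbered 5 to 8 (23.2%). Over all samples 2 rose and 2 fell (15.8%), with *Id1* (0.77) and *Zfp36l1* (0.76) higher and *Id3* (-0.94) and *Hdac2* (-0.58) lower. The median log2 fold changes over all samples were 0.05 for the microtubule genes, 0.11 for the RNA-binding proteins, -0.35 for the GABA and glutamate genes, 0.10 for the genes of mature neurons and -0.11 for the repressors, beside -0.02 for all tested genes.

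**Figure D4:**
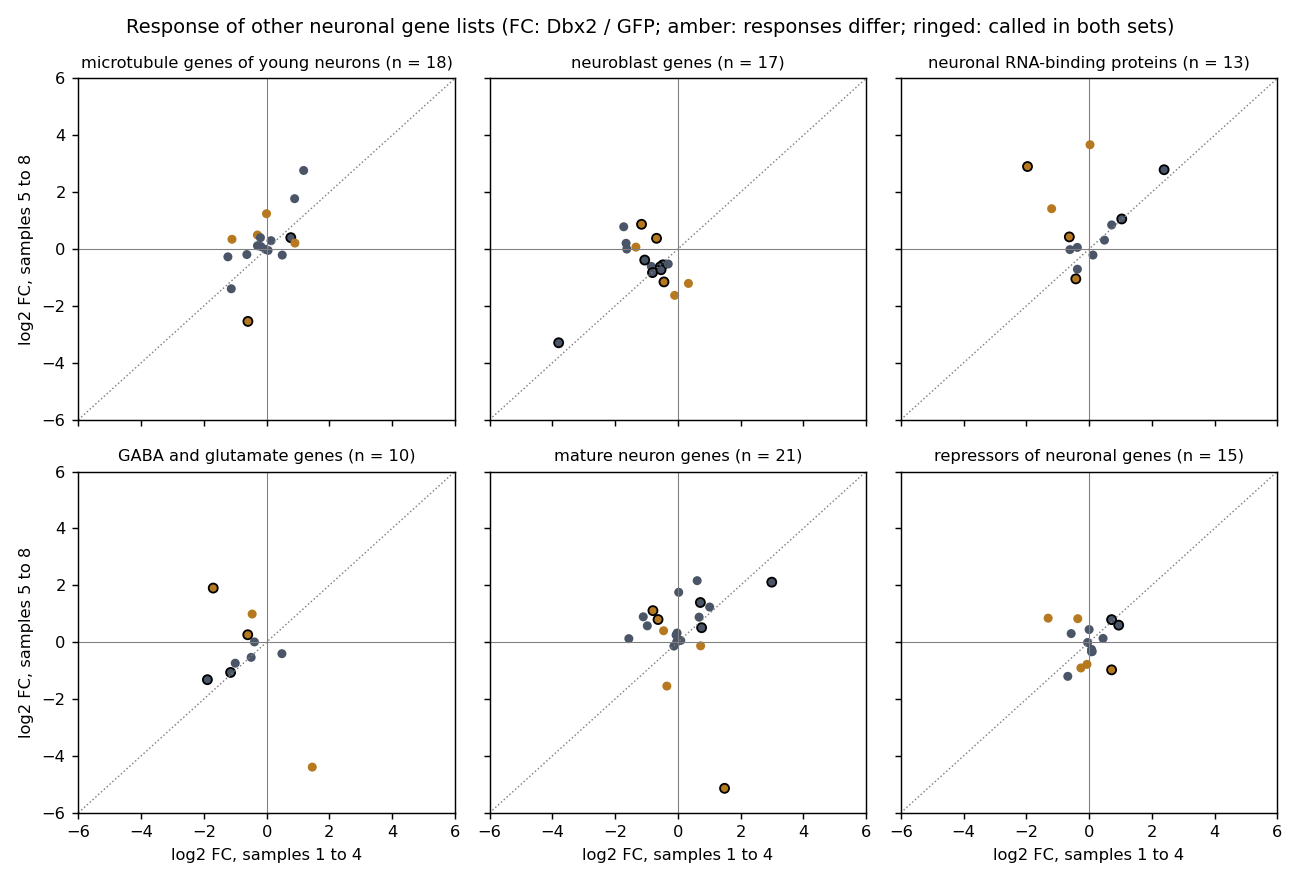
Log2 fold change (*Dbx2*-NSPCs over *GFP*-NSPCs) in the samples numbered 1 to 4 (horizontal) against those numbered 5 to 8 (vertical) for the tested genes of 6 lists; amber points had responses that differed between the sets and ringed points were called in both. Most neuroblast genes lie in the lower left quadrant, where 8 of 17 were called over all samples, whereas the other lists spread over more quadrants.

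Markers of other cell types were counted as well. Over all samples 15.8% of all tested genes were called in either direction. The share was 15.6% in the samples numbered 1 to 4 and 23.2% in those numbered 5 to 8. Of 10 astroglial markers, 3 rose over all samples (*Gfap* by 3.31, *Clu* by 2.78 and *Aldoc* by 1.42). In the same test 3 fell, with *Gja1* lower by 4.13 on the log2 scale. The summed astroglial level was 2310 to 2940 CPM in *GFP*-NSPCs, against 1470 to 2020 CPM in *Dbx2*-NSPCs numbered 1 to 4, and 973 to 1230 and 1230 to 1400 CPM in those numbered 5 to 8. Of the 6 tested oligodendrocyte lineage genes, 1 rose (*Cnp* by 0.81), a share near that of all tested genes. *Mog* was at 0, and the summed level of this list was 2420 to 3270 CPM over the samples. Of the 9 tested NSPC markers, 3 fell, *Pax6* by 0.74, *Msi1* by 0.56 and *Egfr* by 0.45. Of the 4 tested ependymal markers 2 rose, with 2 in the samples numbered 1 to 4 (15.6% of all tested genes called) and 0 in those numbered 5 to 8 (23.2%). For endothelial or mural cells 1 marker was tested and rose, with *Cdh5* and *Cldn5* at 0. The part of these cell types in the values of the marker genes was not tested, and in such bulk samples fewer cells of a type and less RNA per cell cannot be told apart.

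The summed level of the 10 marker genes was 1540 to 1640 CPM in *GFP*-NSPCs, against 1210 to 1330 CPM in *Dbx2*-NSPCs numbered 1 to 4. Most of it is *Map2*, followed by *Mapt* in the samples numbered 1 to 4 and by *Cd24a* in those numbered 5 to 8. The summed level was 1570 to 1730 CPM in *GFP*-NSPCs and 1170 to 1320 CPM in *Dbx2*-NSPCs numbered 5 to 8. The sum was thus lower in *Dbx2*-NSPCs in both sets, although its members did not move together.

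The genes whose pattern over the 16 samples was most like that of a marker were, by Pearson correlation of log2(CPM + 0.5), *Rev3l* (0.978) and *Nfia* (0.976) for *Map2*, *Dio2* (0.979) and *Fam174b* (0.977) for *Mapt*, *Fam171b* (0.963) for *Stmn3*, *Mfhas1* (0.970) for *Elavl3*, *Phldb2* (0.956) for *Cd24a* and *Ylpm1* (0.837) for *Tubb3*. The 16 points share the transgene groups and the number sets, so these values describe likeness and are not tests.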

How the data were processed

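RNA of 16 samples was sequenced as single-end QuantSeq libraries, whose reads lie near the end of each transcript. Per the labels and the study's methods, the authors checked reads with FastQC 0.11.8, trimmed them with bbduk and aligned them with STAR 2.5.0a to GRCm38 with Ensembl annotation; the counting tool is not given in the sources used here. The authors deposited CPM for 30386 genes, scaled to each sample's total and rounded to 2 decimals, and 0 sample columns were left unused. Whole reads were recovered from the steps of the deposited values (99.9991% whole within 0.1 of a read).

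Groups came from the labels. The 12533 genes that exceeded 1 CPM in 4 or more samples were tested on log2(CPM + 0.5) with limma 3.58.1 (eBayes with trend, 2-sided) in R 4.3.3, p-values adjusted by Benjamini and Hochberg's method across these genes and a threshold of 0.05, over all samples, within the samples numbered 1 to 4 and 5 to 8, and for the difference of these responses (5 to 8 minus 1 to 4). The cell line covariate of the study could not be fitted because the labels do not give the line. Same-numbered samples of the groups deviated together from their group means (r of 0.152 to 0.303 in the 8 pairs), but not within the sets (-0.007 to 0.119), and the pairing comes from the labels' numbers. The alternatives were pseudocounts of 0.1 and 2, no filter, a mean of at least 10 CPM, median-of-ratios and quantile scaling, no trend, the replicate block, the set as covariate, leaving out each sample, and count models of the recovered reads (edgeR 4.0.16, DESeq2 1.42.0). The scripts were tested on simulated data.

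The marker genes, gene lists and tests were chosen with earlier results of these data known. Genes named from the other lists were the up to 4 with the largest change among those called over all samples with at least 10 CPM on average in a group, plus relatives of the marker genes; some genes of these lists, though counted, are not reported here by name; genes of like pattern were sought for markers of at least 10 CPM on average. Positions came from GENCODE M21, which matched 30348 of the 30386 gene identifiers, and promoters from RefSeq. Tables were handled with Python 3.11.15.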

Additional observations from a re-analysis of the deposited data

Results flagged for a closer look

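The responses of 3 marker genes differed between the samples numbered 1 to 4 and those numbered 5 to 8 in limma's test of the difference of log2 fold changes, *Dcx* (5.89), *Stmn3* (1.48) and *Mapt* (1.22). By Dixon's criterion, *GFP*-NSPC sample 5 stood above the other 3 samples of its group and set in *Mapt* (101.96 CPM) and *Gad1* (5.54 CPM). Among the 54 groups of values looked at, chance flags about 1 in 20. The criterion also picked *Dcx* in *GFP*-NSPC sample 8 (0.82 CPM, 2 reads) and in *Dbx2*-NSPC sample 3 (0.33 CPM, 1 read), but there the other 3 samples were at 0, so that any read at all gives the highest possible ratio and nothing can be read from it.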

How the results depend on the processing

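Of 357 log2 fold changes of the marker genes under settings that kept all samples, 337 kept their direction and their side of the threshold. Of the rest, 6 were no longer called, 9 became called and 5 changed sign. The sign changes were of *Dcx* over all samples with quantile normalization (-0.02), of *Mapt* over all samples with edgeR and DESeq2 (-0.13 each) and of the *Tubb3* difference between sets with edgeR (0.009) and DESeq2 (0.007), none of which was called. The number of genes called over all samples was 1982, and 3034 with the set as a covariate (1501 higher, 1533 lower). In the samples numbered 1 to 4 it was 1950, and 1299 without the filter; leaving out 1 sample gave 1286 (without *GFP*-NSPC sample 3) to 2209. A replicate block on the shared numbers gave 2723 called genes over all samples, and the marker genes called became 3, with *Elavl3* added (log2 fold change 1.05, adjusted p = 0.000295 by limma). *Cd24a* became called in the difference between sets, and the block changed no other call of a marker gene.

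Leaving out 1 sample at a time changed the sign of these uncalled log2 fold changes: over all samples *Tubb3* (-0.085 to 0.181), *Dcx* (-0.176 to 0.390) and *Mapt* (-0.014 to 0.390); in the samples numbered 1 to 4 *Tubb3* (-0.221 to 0.294); in those numbered 5 to 8 *Gad1* (-0.549 to 0.264) and *Tubb3* (-0.041 to 0.219); and in the difference *Tubb3* (-0.237 to 0.278). The calls of marker genes that 1 sample changed are given with their results. Depth limits *Dcx*, *Elavl4* and *Gad1*, which rest on 104, 191 and 413 reads in all.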

Other observations

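The opposite responses of *Dcx* and *Mapt* had parallels in the neuronal lists. The 5 lists of neuronal genes other than the repressors held 79 tested genes. Of these, 17 were called in both sets in the same direction, where 6.49% of all tested genes were. Another 9 were called in both sets in opposite directions, where 1.47% were. Of the 9, 8 fell in the samples numbered 1 to 4 and rose in those numbered 5 to 8. The responses of 26 of the 79 differed between the sets, where 9.44% of all tested genes did. The genes of opposite directions were picked after their values were seen, so this is a description. *Rbfox3*, which encodes the neuronal nuclear antigen NeuN, averaged 5.55 CPM in the controls against 1.05 CPM in *Dbx2*-NSPCs numbered 1 to 4, but 0.88 and 9.85 CPM in those numbered 5 to 8. *Grin1*, a glutamate receptor subunit, had log2 fold changes of -1.70 and 1.90 in the respective sets. In *GFP*-NSPCs numbered 5 to 8 it averaged 0.495 CPM, which, like the 0.88 CPM of *Rbfox3*, is under the lowest floor of a sample (0.911 CPM). The log2 fold changes were -1.16 and 0.87 for *Nrxn3*, a synaptic adhesion protein, -0.79 and 1.11 for *Nsg2*, -0.63 and 0.80 for *Nrgn*, -0.68 and 0.38 for *Sox4* and -0.63 and 0.43 for *Ptbp2*. *Ank3*, which encodes the scaffold of the axon initial segment, went the other way, from 7.25 to 18.6 CPM in the samples numbered 1 to 4 and from 55.3 to 1.06 CPM in those numbered 5 to 8.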
